A study of Homo sapiens with 54 samples.

Results

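Knockout (KO) of TRA2A was measured in LN229 cells, a human glioma line, that already overexpressed the paralog TRA2B (TRA2B-OE). The comparison set 3 TRA2B-OE libraries with guides against TRA2A beside 3 TRA2B-OE libraries with guides against control loci, which are 6 of the 54 samples of the series. All 6 carried Cas9, a guide and the TRA2B cDNA from lentiviral vectors, so the control cells were also edited and also overexpressed TRA2B, and the cells were collected a week after the guides were introduced. The LN229 table also held 3 groups of 3 libraries from cells that expressed luciferase (Luc) in place of the cDNA, with Control KO, TRA2A KO or TRA2B KO. Poly(A) RNA was sequenced and given as TPM, a relative transcript level scaled for length that keeps no record of depth. Of the 55906 gene symbols in the table, 18490 had at least 1 TPM in at least 4 of its 15 libraries and made up the set described here.

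TRA2A and TRA2B are SR-like splicing activators that bind GAA-rich sequences in exons through an RNA recognition motif flanked by arginine-serine domains, and they promote inclusion of the exons they bind. Each carries a poison exon through which TRA2 proteins limit productive splicing of TRA2 transcripts. Cas9 changes the coding sequence at its cut site, so a knockout need not lower the mRNA of its target. The libraries hold overall gene levels and not exon usage. The question put to them was what TRA2A loss did to RNA levels when the paralog was already in excess.

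The study's guide sheet lists 3 SpCas9 knockout guides for TRA2A, which are shown with their target sites because they define the perturbation. Which of them the RNA-seq libraries received is not given in the sources used here. Each guide is written 5′ to 3′ in lower case, followed in capitals by the NGG motif (PAM) next to its site in hg38.
TRA2A sg4: tcagtttgtacacaacagagAGG
TRA2A sg5: tctcgatatggaccattgagTGG
TRA2A sg6: tggtttatgatcagcgaactGGG
The sites lie at chr7:23513020-23513042, chr7:23512979-23513001 and chr7:23512948-23512970 (hg38, PAM included), on the minus strand as TRA2A itself. All 3 fall inside coding exon 4 of the 8 exons of the TRA2A transcript ENST00000297071.9 (Gencode v44). Each guide had 1 exact match in hg38. The closest stretches of the TRA2B coding exons are given for comparison, with the bases that differ from the guide in capitals.
TRA2B nearest to sg4: tGagCttgtacacCacagaA
TRA2B nearest to sg5: tctAAatatggTccCAtTGC
TRA2B nearest to sg6: tTgtAtatgaCcagcAGTct
They lie in exon 4 of TRA2B, at chr3:185923925-185923944, chr3:185923884-185923903 and chr3:185923853-185923872 (hg38, minus strand). They differ from the guides at 4, 8 and 6 of 20 bases. The stretch nearest to sg6 is followed by an NGG motif, and the other 2 are not.

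The TPM of a library summed to between 956252 and 960161 in the LN229 table, mitochondrially encoded genes took 6.02% to 8.31% of it, and no library was identical to another. Replicate 1 of the TRA2B-OE Control KO group had the lowest median correlation to its group, 0.945 against 0.954 and 0.956 for the other controls (log2 scale, 18490 genes). The Luc controls stood at 0.9444, 0.9505 and 0.946 to their own group, so its value was not unusual in the table. Counts are given with and without it, and the other libraries were also left out in turn. Of 8 markers of glioma lines with mesenchymal and neural progenitor features, 7 averaged at least 1 TPM over the 6 libraries, with VIM (encoding the intermediate filament vimentin) at 2454 to 3374 TPM, while CHI3L1 did not exceed 0.109 TPM. None of the 4 endothelial and none of the 5 epithelial markers reached that mean, the leukocyte marker CD14 stayed between 1.11 and 2.51 TPM, and the pan-leukocyte marker PTPRC between 0.0704 and 0.41 TPM. The labels do not say whether the replicates were separate cultures, so the p-values measure only the spread between these libraries.

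TRA2A mRNA, the target, was slightly lower in the knockouts of TRA2B-OE cells, without passing the test. The control libraries held 84.2, 74.8 and 81.5 TPM and the TRA2A KO libraries 75.6, 68.8 and 65.4 TPM. The groups overlapped in TPM, since the highest knockout library exceeded the lowest control, and they no longer overlapped after scaling between libraries. The knockout mean was 87.2% of the control mean (log2 fold change -0.23 ± 0.069 SE, adjusted p = 0.068, limma with Benjamini-Hochberg adjustment), which did not pass the threshold of 0.05. An exact permutation test on TPM, two-sided, gave p = 0.2, where 3 against 3 libraries cannot go below 0.1. In Luc cells the controls held 106, 112 and 111 TPM and the knockouts 74.2, 67.1 and 65.02 TPM. That drop passed the test (log2 fold change -0.65, limma adjusted p = 0.0026). The knockout libraries therefore ended at means of 69.9 TPM in TRA2B-OE cells and 68.8 TPM in Luc cells, and it was the controls that lay apart, at 80.2 ± 4.86 and 109 ± 3.31 TPM (SD, n = 3 each). The drop in TRA2B-OE cells was smaller than that in Luc cells by 0.42 on the log2 scale (95% interval 0.21 to 0.63), with an adjusted p of 0.51 over all genes. In LN319, a second glioma line given the same TRA2B-OE treatment and fitted by itself, TRA2A changed by -0.87 (adjusted p = 0.00091).

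TRA2B, the overexpressed paralog, was high in both groups. It stood at 703, 899.6 and 893 TPM in the controls and 908, 1112 and 1141 TPM in the TRA2A KO libraries, against 202, 232 and 234 TPM in the Luc controls. Reads of the cDNA and of the endogenous gene are counted under 1 symbol. The knockout libraries lay above all controls in TPM, but overlapped with them after scaling, and the difference did not pass the test (log2 fold change 0.31 ± 0.12 SE, adjusted p = 0.14). Without control replicate 1, the lowest of the controls, the log2 fold change was 0.18 (adjusted p = 0.38). It did pass after quantile normalization (0.36, adjusted p = 0.040). The plot of both paralogs by library shows these levels.

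**Figure D1:**
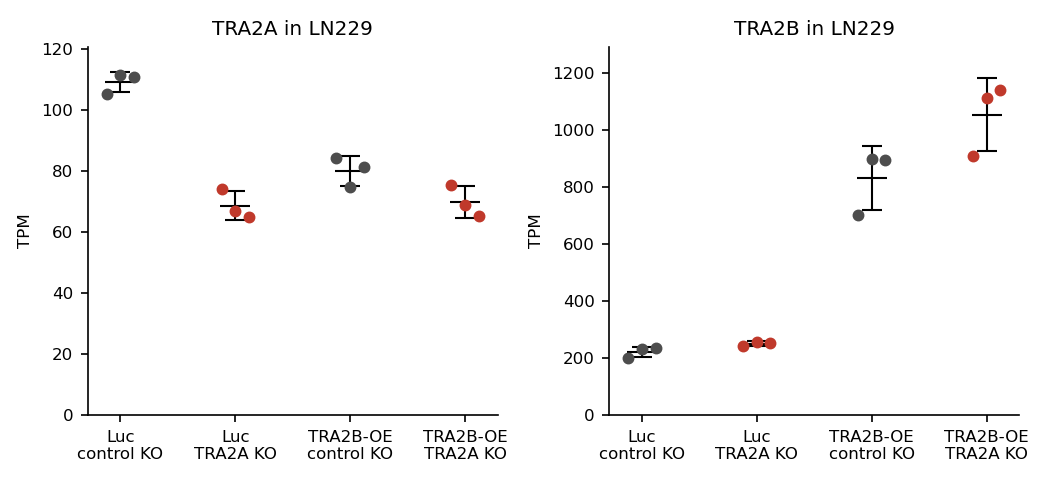
TPM of TRA2A and TRA2B (linear axes from 0) in 12 LN229 libraries of 4 groups; points are libraries, grey for Control KO and red for TRA2A KO, and bars are the mean with SD (n = 3). TRA2A ends at 69.9 and 68.8 TPM after knockout, while the TRA2B-OE controls start below the Luc controls; TRA2B is 374% of the Luc control mean in the TRA2B-OE controls.

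Across all genes, more DEGs were lower than higher after TRA2A KO in TRA2B-OE cells, and this held under every alternative scaling, filter and pseudocount. A gene was called differentially expressed (a DEG) where its adjusted p was below 0.05 and its log2 fold change was beyond 1 in size. There were 208 DEGs, 1.12% of the genes tested, of which 136 (65.4%) were lower and 72 higher in the knockout. With no minimum fold change, 402 genes were higher (2.17%) and 717 lower (3.88%). This count over all genes turned with the scaling, since 541 genes at an adjusted p under 0.05 were higher and 512 lower when TPM was used as deposited (527 and 684 after quantile normalization). The excess of lower DEGs lay mainly among the 12225 tested genes that Gencode v44 lists as protein coding, with 98 lower and 27 higher, whereas the 3997 tested symbols with no match in that annotation gave 19 lower and 32 higher DEGs. Of the DEGs, 49 carried clone-style or date-like names and 16 names of small RNAs. DEGs were found at 69 of 5386 genes whose higher group averaged 1 to 5 TPM, at 70 of 4652 genes at 5 to 20 TPM and at 68 of 7727 genes above 20 TPM. The median absolute log2 fold change of the DEGs was 1.30.

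The counts depended on single libraries. Without control replicate 1 there were 92 DEGs (29 higher, 63 lower), of which 63 were among the 208. Without control replicate 2 there were 103, without TRA2A KO replicate 2 there were 89, and without TRA2A KO replicate 3 there were 68. The genes at an adjusted p under 0.05 numbered 518 without control replicate 1 (179 higher, 339 lower) and 402 without control replicate 2. They numbered 742, 381 and 335 without TRA2A KO replicates 1, 2 and 3. List counts without control replicate 1, given below, are to be read against 179 higher and 339 lower of 18490 genes. Control replicate 1 was the highest of the 3 controls at 106 of the 136 lower DEGs (77.9%, against 42.2% of all genes). It was the lowest control at 47 of the 72 higher DEGs (65.3%, against 41.0% of all genes). Of the 73 named genes at an adjusted p under 0.05, 31, 31 and 53 passed without control replicates 1, 2 and 3, and 44, 25 and 24 without TRA2A KO replicates 1, 2 and 3, each in the same direction as with all libraries. Groups of these genes did not overlap on scaled values, so leaving out 1 library could hardly turn a direction. The kept directions are therefore no further evidence.

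**Figure D2:**
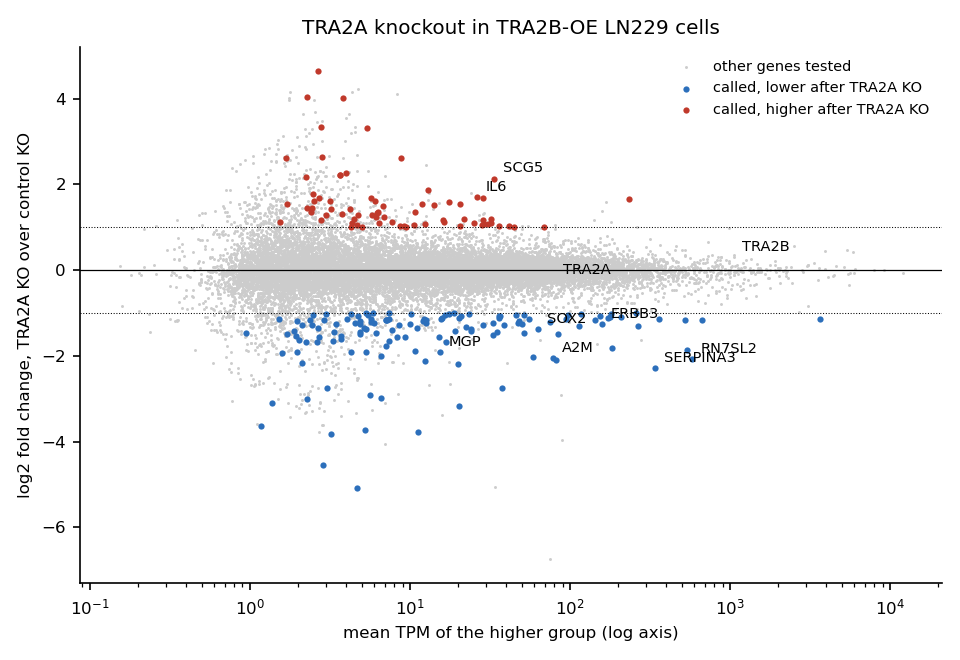
Log2 fold change of TRA2A KO over Control KO in TRA2B-OE LN229 cells against the mean TPM of the higher group (log axis), for 18490 genes; blue points are the 136 lower DEGs and red points the 72 higher DEGs, and dotted lines mark log2 fold changes of -1 and 1. SERPINA3 and RN7SL2 lie far below the line at high levels, SCG5 and IL6 above it at lower levels, and TRA2A and TRA2B lie between the lines.

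SOX2, a transcription factor of neural progenitors and glioma stem-like cells (chr3:181711925-181714436, hg38), fell. The controls held 69.3, 64.7 and 56.5 TPM and the TRA2A KO libraries 30.1, 25.3 and 20.4 TPM, and the groups did not overlap. Such separation in the lower direction was seen for 14.3% of all genes tested, and in the higher direction for 13%. SOX2 fell 2.59-fold (log2 fold change -1.38 ± 0.14 SE, adjusted p = 0.00065), and by 1.32 on the log2 scale without control replicate 1 (adjusted p = 0.0037). In Luc cells it changed by -0.87 (adjusted p = 0.0095). NES, the intermediate filament nestin of the same progenitors, fell from 233, 268 and 253 TPM to 213, 226 and 213 TPM (log2 fold change -0.24 ± 0.064 SE, adjusted p = 0.041). Both belong to a list of 8 glioma line markers, of which 7 were tested, with 2 lower and 0 higher calls, 4 values above 0 and a median of 0.17 (0.04 without control replicate 1). Over all genes, 3.88% were lower and 2.17% higher at the same adjusted p. The hyaluronan receptor CD44, the caveolin CAV1, the filament VIM and the factor SOX9 were at 0.35, 0.32, 0.17 and 0.34, and the matrix glycoprotein TNC at -0.23, none of which passed (adjusted p = 0.085, 0.16, 0.42, 0.63 and 0.068). GFAP, the astrocyte filament, stayed between 1.99 and 5.17 TPM.

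Secreted proteins of the plasma protease-inhibitor and transport families fell further. SERPINA3, the inhibitor alpha-1-antichymotrypsin (chr14:94612384-94624055), went from 556, 254 and 214 TPM to 69.9, 68.8 and 57.6 TPM (log2 fold change -2.29 ± 0.41 SE, adjusted p = 0.0093). Control replicate 1 was far above the other 2 controls, and replicate 1 was the highest library in each of the 4 groups at SERPINA3, as at FXYD3, ERBB3 and FOS. The value of SERPINA3 without that control was -1.88 (adjusted p = 0.032). A2M, the broad inhibitor alpha-2-macroglobulin (chr12:9067664-9116229), went from 99.8, 73.8 and 61.8 TPM to 15.2, 23.5 and 18.7 TPM (log2 fold change -2.06 ± 0.26 SE, adjusted p = 0.0015). TF, which encodes the iron carrier transferrin (chr3:133746040-133796641), went from 110.1, 73.04 and 62.6 TPM to 16.1, 22.6 and 18.9 TPM (log2 fold change -2.09 ± 0.32 SE, adjusted p = 0.0038). A2M and TF without control replicate 1 were at -1.88 and -1.86 (adjusted p = 0.008 and 0.019). That the groups did not overlap at the leading genes was fixed by the rule that chose them. MGP, the matrix Gla protein that inhibits calcification, went from 21.3, 12.4 and 12.6 TPM to 4.53, 4.09 and 3.39 TPM (log2 fold change -1.92 ± 0.26 SE, adjusted p = 0.002). DEFB124, a beta-defensin gene, went from 21.6, 24.4 and 13.7 TPM to 4.65, 4.38 and 3.72 TPM (log2 fold change -2.199 ± 0.31 SE, adjusted p = 0.0023). The secreted or membrane genes FXYD3, ITIH6, IGFBP5 and PRSS33 and the CDC42 effector gene CDC42EP5 were also among the 15 leading lower genes, at log2 fold changes of -2.75, -2.13, -2.04, -2.003 and -1.88. Of these 5, PRSS33 alone passed without control replicate 1 (adjusted p = 0.045), and the others stood at adjusted p of 0.095, 0.066, 0.11 and 0.13 in that fit.

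The genes that rose furthest included IL6, the inflammatory cytokine. It held 6.03, 8.58 and 9.38 TPM in the controls and 26.04, 24.3 and 29.02 TPM in the knockouts (log2 fold change 1.699 ± 0.36 SE, adjusted p = 0.019). SCG5, a secretory granule chaperone, went from 4.63, 8.09 and 9.79 TPM to 22.8, 33.2 and 45.2 TPM (log2 fold change 2.13 ± 0.42 SE, adjusted p = 0.014). ANGPTL4, a secreted inhibitor of lipoprotein lipase, went from 4.25, 8.09 and 9.12 TPM to 16.9, 20.9 and 24.4 TPM (log2 fold change 1.54 ± 0.31 SE, adjusted p = 0.015). Leaving out control replicate 1 put the adjusted p of IL6, SCG5 and ANGPTL4 at 0.067, 0.0501 and 0.042, so ANGPTL4 alone of these 3 passed there. The serpin gene SERPINB7 and the cell-cycle adaptor gene SFN, which encodes 14-3-3 sigma, were at 1.58 and 1.34. The keratin-associated gene KRTAP2-3, the GTPase gene ARL14, FAM167A and the noncoding LINC01173 were at 2.62, 1.49, 1.24 and 1.68. The pseudogene GGT8P was at 1.602 and may share reads with its parent family. None of these 7 passed without control replicate 1 (adjusted p = 0.063 to 0.13).

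**Figure D3:**
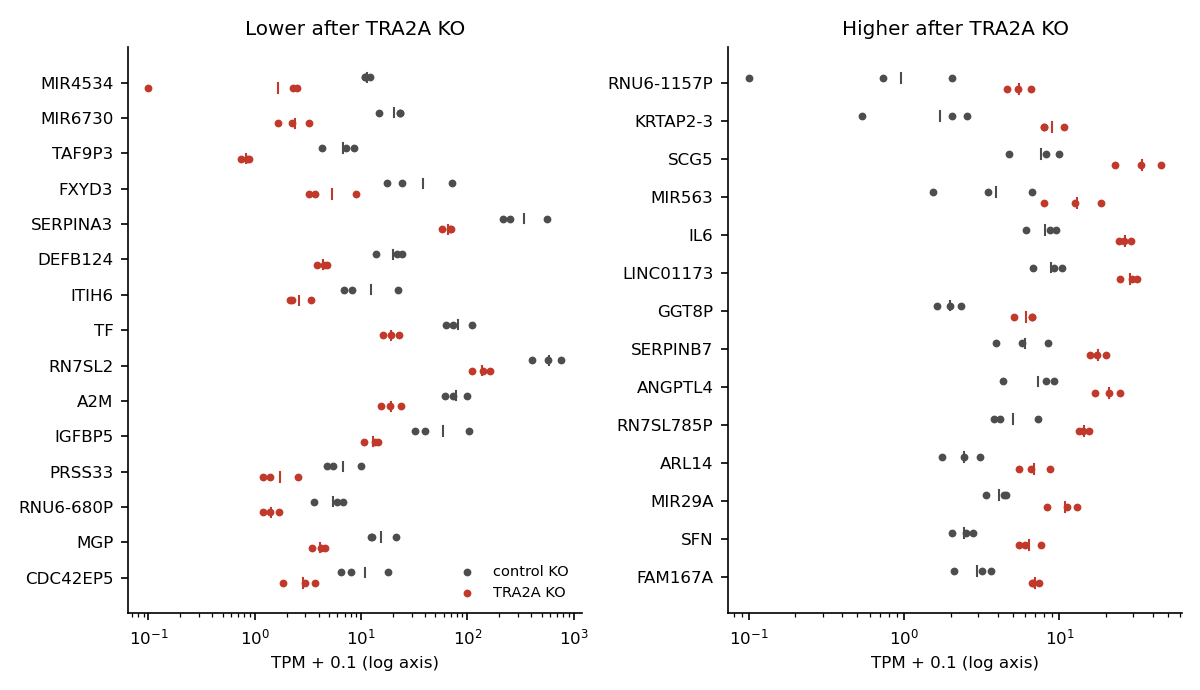
TPM + 0.1 (log axis) in the 3 control (grey) and 3 TRA2A KO (red) libraries of TRA2B-OE LN229 cells, for the 15 leading lower genes (left) and 14 of the 15 leading higher genes (right); points are libraries and ticks are means. The genes were picked for groups that do not overlap; grey points of FXYD3, SERPINA3 and IGFBP5 are spread by control replicate 1, while those of A2M, TF and MGP are closer together.

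Small noncoding RNA rows made up the rest of the leading genes, and they are uncertain, since poly(A) libraries are not made for them and near-identical copies share reads. RN7SL2, a copy of the signal recognition particle RNA, held 406, 763 and 572 TPM in the controls and 109.9, 162 and 140.0 TPM in the knockouts (log2 fold change -2.08 ± 0.24 SE, adjusted p = 0.0013). RN7SL1, its close copy and named here after its values were seen, fell alongside it, from 385, 711 and 529.5 TPM to 115, 178 and 157 TPM (log2 fold change -1.86 ± 0.25 SE, adjusted p = 0.0018). The copy RN7SL785P went the other way, at 1.53. In Luc cells RN7SL2 was at -0.34, and the difference between both responses was -1.75 (95% interval -2.49 to -1), with an adjusted p of 0.47. The microRNA gene rows MIR6730 and MIR4534 were at -3.17 and -3.79, and MIR563 and MIR29A at 1.87 and 1.36. The U6 copies RNU6-1157P and RNU6-680P were at 3.32 and -1.92, and the pseudogene TAF9P3 at -2.99. Without control replicate 1, MIR6730, RNU6-1157P and RNU6-680P passed, and MIR4534, MIR563, MIR29A, TAF9P3 and RN7SL785P did not. These rows count reads placed on the hairpin or copy and do not measure a mature microRNA.

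Genes of the splicing machinery showed few changes in overall level. Of all 18490 genes, 1780 were higher and 2320 lower at an unadjusted p under 0.05 in limma. Counts of list members at an unadjusted p, here and below, are to be read against that. None of the 11 SR proteins tested, the family of splicing activators closest to TRA2 in make-up, passed in limma, with 1 higher and 3 lower at an unadjusted p under 0.05 and log2 fold changes from -0.39 to 0.22. The 3 lower ones were SRSF3, SRSF5 and SRSF8. SRSF3 was at 319, 389 and 406 TPM in the controls and 291, 327 and 304 TPM in the knockouts (log2 fold change -0.30 ± 0.094 SE, adjusted p = 0.08). It overlapped between groups, and without control replicate 1 it passed at -0.41 (adjusted p = 0.018). None of the 22 hnRNP proteins, which often oppose SR proteins, passed, and none had an unadjusted p under 0.05, while 1 was called lower and 20 of 22 were below 0 without control replicate 1. None of the 7 SR protein kinases (1 higher and 0 lower unadjusted), the 24 other splicing regulators (1 and 5) and the 10 nonsense-mediated decay factors (1 and 1) passed either, and 1 decay factor was called lower without control replicate 1. The 14 snoRNA host genes, whose transcripts are degraded by nonsense-mediated decay, had a median of 0.27 with 0 called and 5 higher at an unadjusted p under 0.05, beside a median of 0.00 over all genes, and the list's median was 0.16 without control replicate 1. The 4 genes on the study's list of RT-PCR primers for exon inclusion gave no call here, with 0 higher and 2 lower at an unadjusted p under 0.05. CHEK1, the checkpoint kinase, was at 0.17 ± 0.22 SE, the centrosomal genes CEP192 and CNTRL were at -0.30 ± 0.13 and -0.31 ± 0.10, and the centriolar gene OFD1 was at -0.01 ± 0.13. CNTRL held 13.7, 13.02 and 12.4 TPM in the controls and 12.2, 11.3 and 8.92 TPM in the knockouts, without overlap (adjusted p = 0.095). Levels of whole genes do not show whether an exon was skipped.

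Gene groups outside splicing with larger shares of calls concerned adhesion, matrix proteases and growth factor receptors. The antioxidant and immediate early lists described below held shares close to that of the receptors. Collagens held a smaller share. Among 22 integrin and laminin genes, which anchor cells to the basement membrane, 6 were lower and 1 higher at an adjusted p under 0.05, where 3.88% and 2.17% of all genes were, and the median was -0.29. ITGB3, the beta-3 integrin, went from 89.8, 68.7 and 61.5 TPM to 37.8, 41.4 and 39.4 TPM (log2 fold change -0.91 ± 0.17 SE, adjusted p = 0.012). ITGB4 and the laminin LAMA4 were lower (-0.95 and -1.02), and the laminin LAMB3 was higher (0.73). With control replicate 1 left out, 2 of the 22 passed, ITGB3 and ITGB4. Of all 18490 genes, 179 were higher and 339 lower in that fit. Among 13 matrix proteases and their inhibitors, 5 were lower and 1 higher, with a median of -0.32 that turned to 0.07 when genes were not filtered. The lower ones included the gelatinase MMP2 (-0.55), the membrane protease MMP15 (-0.61) and the inhibitor TIMP1 (-0.59). The higher one was ADAMTS6, at 2.92, 4.06 and 3.41 TPM in the controls and 7.24, 7.88 and 8.12 TPM in the knockouts (log2 fold change 1.12 ± 0.14 SE, adjusted p = 0.0014). The same list had 2 lower and 1 higher, and a median of -0.21, without control replicate 1. Of 17 collagens, COL11A1, a fibrillar collagen, fell from 381, 319 and 269.8 TPM to 170.5, 188 and 153 TPM (log2 fold change -0.95 ± 0.14 SE, adjusted p = 0.0027), COL4A6 rose (0.86), and 15 did not pass, while COL11A1 alone passed without control replicate 1.

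Of 23 receptor tyrosine kinases, 5 were lower and 2 higher at an adjusted p under 0.05, beside 3.88% and 2.17% of all genes. ERBB3, a neuregulin receptor, held 236, 125 and 114 TPM in the controls and 74.5, 59.8 and 59.03 TPM in the knockouts (log2 fold change -1.26 ± 0.31 SE, adjusted p = 0.033). Its partner ERBB2 went from 66.7, 71.6 and 62.1 TPM to 54.2, 42.99 and 40.04 TPM (log2 fold change -0.59 ± 0.10 SE, adjusted p = 0.0056). FGFR3, a fibroblast growth factor receptor, was lower (-0.78), and ROR1, a Wnt5a receptor, was higher (0.55). The count was again 5 lower, with 1 higher, without control replicate 1, beside 339 lower and 179 higher of 18490 genes. ERBB3 itself did not pass there (-0.94, adjusted p = 0.12). Of 12 ERK feedback genes, the ETS factors ETV4 and ETV5 were lower (-0.42 and -0.40), and both were lost without control replicate 1.

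Stress genes moved in both directions. The list counts are again at an adjusted p under 0.05, where 2.17% of all genes were higher and 3.88% lower. Among 14 targets of the antioxidant factor NRF2, 4 were higher and 0 lower, with a median of 0.45. HMOX1, heme oxygenase, held 26.9, 20.6 and 25.6 TPM in the controls and 40.05, 34.8 and 45.2 TPM in the knockouts (log2 fold change 0.68 ± 0.12 SE, adjusted p = 0.0074). The ferritin chains FTL and FTH1 were at 0.56 and 0.46, and the aldo-keto reductase AKR1B10 at 0.98. NQO1, a defining NRF2 target named after its value was seen, was at -0.08 and did not pass. Control replicate 1 left out, 2 of the 14 were higher, beside 179 of 18490 genes. Of 21 AP-1 and immediate early genes, 4 were higher and 2 lower. ATF3, a stress-induced bZIP factor, went from 38.3, 40.9 and 44.7 TPM to 62.4, 71.3 and 81.9 TPM (log2 fold change 0.76 ± 0.11 SE, adjusted p = 0.0035), and MYC was also higher (0.70). FOS and EGR3, which growth factors induce within minutes, were lower (-1.56 and -1.07). Without control replicate 1 the list kept ATF3 as its 1 higher and EGR3 as its 1 lower call.

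The ATF4 and ER stress list of 24 genes had 2 higher and 2 lower members, beside 2.17% and 3.88% of all genes. TRIB3, a pseudokinase induced by ATF4, rose from 54.9, 59.9 and 61.1 TPM to 109.9, 88.9 and 94.3 TPM (log2 fold change 0.70 ± 0.10 SE, adjusted p = 0.0027), and ASNS, asparagine synthetase, was at 0.30. The ER chaperone genes PDIA4 and CRELD2 were lower (-0.40 and -0.36), and TRIB3 was the 1 call of the list without control replicate 1. Of 25 p53 targets, GADD45A, a growth arrest gene, rose from 164, 194 and 203 TPM to 331, 296 and 324 TPM (log2 fold change 0.73 ± 0.11 SE, adjusted p = 0.0036), the sestrin SESN2 was higher (0.36), and MDM2, the p53 ubiquitin ligase, was lower (-0.32), of which GADD45A alone was called without control replicate 1. CDKN1A, the p21 gene and a further defining p53 target named after its value was seen, was at -0.02. Of 11 BCL2 family genes 1 passed, the survival gene BCL2L1 (0.54). Of 14 cytokine and chemokine genes, CXCL8 passed with IL6, at 0.48, and CXCL8 but not IL6 passed without control replicate 1. None of 14 heat shock proteins passed (3 higher and 1 lower at an unadjusted p under 0.05).

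Metabolic and housekeeping groups stayed closer to 0. Their called members stand beside 2.17% of all genes higher and 3.88% lower at an adjusted p under 0.05. Of 23 sterol synthesis genes, 2 were lower, among them the sterol reductase TM7SF2 (-0.69), which did not pass without control replicate 1, when 1 member was lower. Of 25 hypoxia and glycolysis genes, PFKFB3 and LDHA were lower (-0.53 and -0.37), and VEGFA, the angiogenic factor, was higher (0.52). LDHA, lactate dehydrogenase A, went from 1067, 1196 and 1182 TPM to 978, 905 and 852 TPM and passed without control replicate 1, when no member was higher. Of 79 cytosolic ribosomal proteins, RPL26 was higher (0.45), and none of 13 mitochondrially encoded genes passed (0 higher and 3 lower unadjusted). These counts became 0 higher and 3 lower for ribosomal proteins, and 0 and 2 for mitochondrial genes, without control replicate 1. Of all 18490 genes, 179 were higher and 339 lower in that fit.

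Medians of the S-phase and G2/M lists changed sign with single libraries, while that of the interferon list shifted in size and stayed below 0. Of 30 interferon-stimulated genes, 28 had a log2 fold change below 0 and the median was -0.56, yet none passed the test, with 1 higher and 9 lower at an unadjusted p under 0.05. IFIT1, named after its values were seen, held 5.52, 1.59 and 1.199 TPM in the controls and 0.773, 0.626 and 0.545 TPM in the knockouts (log2 fold change -1.67 ± 0.66 SE, adjusted p = 0.15). BST2, chosen likewise, held 33.8, 15.2 and 12.04 TPM in the controls and 8.68, 7.33 and 8.23 TPM in the knockouts. At both genes the groups did not overlap in TPM and control replicate 1 was far above the other controls. Replicate 1 was also the highest library of the other 3 groups, with IFIT1 at 0.773, 10.2 and 2.49 TPM in the TRA2B-OE knockouts, Luc controls and Luc knockouts and BST2 at 8.68, 46.5 and 15.03 TPM. Without control replicate 1 the median of the interferon list was -0.26, with 27 of 30 below 0. That median ranged from -0.63 to -0.26 with any 1 library of the comparison left out. In Luc cells the list had a median of -0.49. Of 43 S-phase genes, 35 were above 0 with a median of 0.11, which turned to -0.08, with 33 below 0, without control replicate 1. Of 54 G2/M genes, 35 were below 0 with a median of -0.08, and 51 without that library (-0.21). The only call in these 2 lists was POLR1B (0.31), a subunit of RNA polymerase I that stands in the S-phase list, and it was lost without control replicate 1. None of 36 centrosome and centriole genes passed (0 higher and 3 lower unadjusted), with a median of -0.01 that was 0.02 on TPM as deposited.

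**Figure D4:**
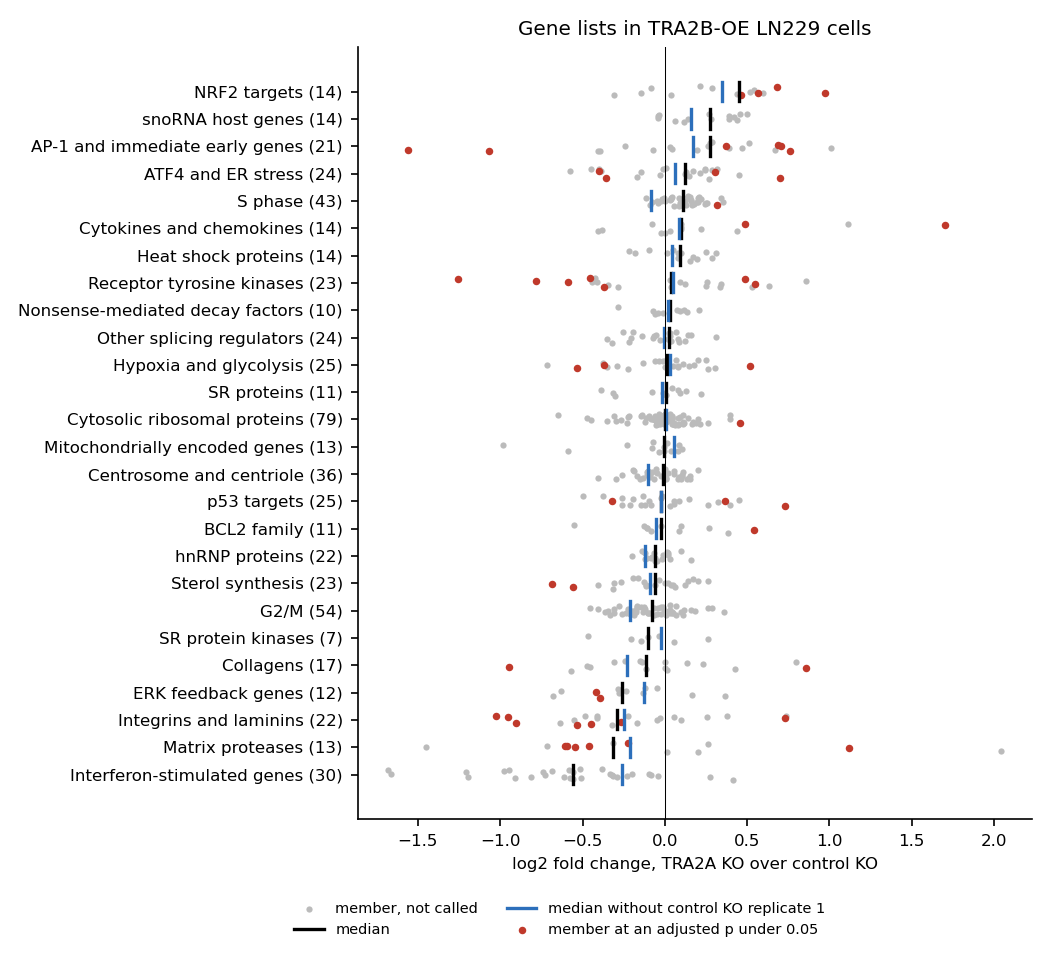
Log2 fold change of TRA2A KO over Control KO in TRA2B-OE LN229 cells for the members of 26 gene lists (number tested in parentheses); grey points did not pass, red points have an adjusted p under 0.05, and bars are the list's median with all libraries (black) and without control KO replicate 1 (blue). Interferon-stimulated genes lie lowest with 0 called members, and the S-phase median crosses 0 between both bars.

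Markers of other glial types were read beside these results. The summed TPM of 6 astrocyte markers ranged from 169.8 to 499.5 in the controls and from 63.0 to 137.3 in the knockouts, nearly all of it S100B, with AQP4, SLC1A2 and ALDH1L1 all at or under 0.2 TPM. S100B, a calcium-binding protein of astrocytes and Schwann cells, held 496, 169 and 165 TPM in the controls and 133, 66.1 and 56.5 TPM in the knockouts (log2 fold change -1.63 ± 0.53 SE, adjusted p = 0.088). Of the oligodendrocyte-lineage markers, the transcription factor OLIG2 stayed between 6.196 and 11.6 TPM and the myelin glycoprotein MOG between 0.176 and 0.637 TPM. S100B was also highest in replicate 1 of the TRA2A KO group, and in Luc cells it held 834, 276 and 256 TPM in the controls and 319, 139 and 116 TPM in the knockouts, so that replicate 1 was the highest library in each of the 4 groups. None of the 3 astrocyte and 4 oligodendrocyte-lineage markers tested passed in limma, with 0 higher and 1 lower in each list at an unadjusted p under 0.05. Of 4 neuronal markers tested, the synaptic gene SNAP25 was higher (0.45, adjusted p = 0.015), from 20.5, 16.5 and 17.3 TPM to 27.7, 24.7 and 23.6 TPM, and RBFOX3 did not exceed 0.992 TPM. In bulk libraries fewer cells of a kind and less RNA per cell cannot be told apart, and the part of such markers in the changes above was not tested.

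The same knockout in Luc cells, measured in 6 other libraries, was set beside it to ask how far the response went with TRA2B overexpression. It gave 132 DEGs (57 higher, 75 lower), 0.714% of the genes tested. The DEG sets shared 57 genes, which is 27.4% of those in TRA2B-OE cells and 43.2% of those in Luc cells, and 56 of the 57 changed in the same direction. The exception was RP11-24N18.1, named after its values were seen, at -2.16 in TRA2B-OE and 1.902 in Luc cells. Of the 208 DEGs in TRA2B-OE cells, 190 (91.4%) had the same sign in Luc cells, against 69.8% of all genes. Their median change in the TRA2B-OE direction was 0.89 in Luc cells and 1.30 in TRA2B-OE cells. Conversely, the DEGs of Luc cells had a median of 1.03 in TRA2B-OE cells and 1.33 in Luc cells, so each set was larger where it was picked. Of the 30 leading genes, 28 had the same sign in Luc cells and 14 were DEGs there, with SERPINA3, TF and A2M at -2.22, -2.04 and -1.74, and IL6 at 1.72. Across 18490 genes, which share libraries and are not independent replicates, the fold changes of both settings had a Pearson r of 0.309.

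**Figure D5:**
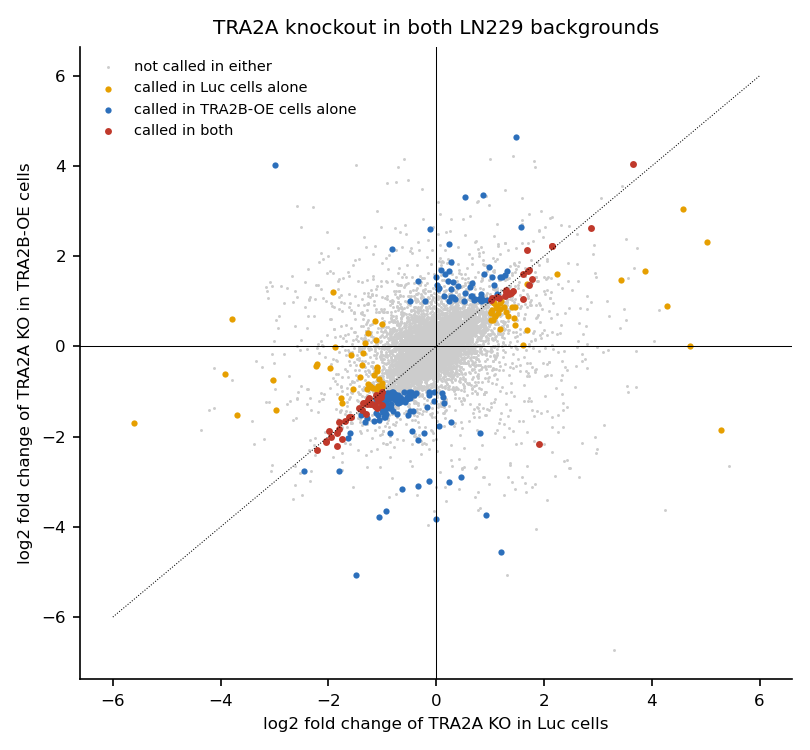
Log2 fold change of TRA2A KO in TRA2B-OE cells (vertical) against that in Luc cells (horizontal) for 18490 genes of LN229; red points are the 57 DEGs of both, blue points those of TRA2B-OE cells alone, orange points those of Luc cells alone, and the dotted line marks equal change. Of the 208 DEGs in TRA2B-OE cells, 190 lie in the quadrants of equal sign.

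The difference between the responses was tested for each gene in the same fit. No gene had an adjusted p under 0.05 in limma, also with robust moderation. Of the 18490 genes, 1068 had an unadjusted p under 0.05 (460 with a higher and 608 with a lower response in TRA2B-OE cells). A share of 0.05 is expected where no response differs. Leaving out control replicate 1 let 11 genes pass (2 with a higher and 9 with a lower response), without control replicate 2 of the TRA2B-OE group 1 passed, and without replicate 1 of the Luc controls 1 passed. A few of the 11 were named after their values were seen. AKT1, the survival kinase, held 106, 123 and 126 TPM in the Luc controls and 156, 163 and 152 TPM in the Luc knockouts. In TRA2B-OE cells it held 106, 137 and 121 TPM in the controls and 109.9, 109 and 109 TPM in the knockouts, with a difference of responses of -0.70 without control replicate 1 (adjusted p = 0.046) and -0.61 with it (adjusted p = 0.47). All 3 Luc knockouts lay above the Luc controls, and all 3 TRA2B-OE knockouts lay within the range of their controls. AKT1 was picked by these same values, so this pattern adds no support to the difference. PLLP, the myelin membrane protein plasmolipin, held 6.16, 3.63 and 3.95 TPM in the TRA2B-OE controls and 11, 7.56 and 9.77 TPM in the knockouts, and 6.47, 5.38 and 4.94 and then 4.36, 3.17 and 4.25 TPM in Luc cells. Its difference was 1.503 with all libraries (adjusted p = 0.47) and 1.74 without that control (adjusted p = 0.046). In that same fit SUMO2, a ubiquitin-like modifier, and MBD2, a methyl-CpG reader, differed by -0.70 and -0.69. SORD, sorbitol dehydrogenase, differed by -0.62 and EHHADH, a peroxisomal beta-oxidation enzyme, by 1.16.

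In LN319 the same TRA2B-OE comparison, fitted separately, gave 45 DEGs (26 higher, 19 lower). SOX2 and TF, which fell in LN229, were at -0.09 and -0.36 there, and A2M and MGP at -1.27 and -1.25. IL6, which rose in LN229, was at -0.08. The lines were not compared by a test, and SERPINA3 was not among the genes kept in LN319.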

How the data were processed

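RNA-seq libraries of LN229 cells were used, 15 in 5 groups of 3, of which 6 enter the comparison described. Per the labels, poly(A) RNA was made into directional libraries. By their methods, the authors quantified reads with kallisto (0.48.0 in the submitters' processing notes, genome GRCh38) against Gencode v34. The release behind the deposited symbols was not checked, and 3997 of those tested had no match in Gencode v44. The deposited values are gene-level TPM, which are neither scaled between libraries nor on a log scale and keep no depth. Precision is therefore given as the spread of replicates. For their own DEGs the authors used TMM and limma-voom, which need counts.

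The 18490 genes that reached 1 TPM in 4 or more libraries were kept. Libraries were brought to a common scale with trimmed means of M values, without weights (30% of ratios and 5% of abundances trimmed at each end), put on log2(TPM + 0.1) and fitted in R 4.3.3 with limma 3.58.1, all 5 groups in 1 fit, with a mean-variance trend, two-sided tests and Benjamini-Hochberg adjustment over all genes. A fold change on this scale understates that of low genes. The fit was tested on simulated data. Overlap between groups was judged on scaled values unless TPM is named. Python 3.11.15 was used for sequences and figures; guide sites were found by exact search of hg38, and gene names matched Gencode v44 for all 90 named genes.

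Named genes were both TRA2 paralogs, 4 genes with RT-PCR primers, the SR family, the 15 DEGs of largest fold change in each direction without overlap and with a mean of at least 5 TPM in a group, and up to 4 members of a list at an adjusted p under 0.05, leaving out clone-style and date-like names and genes of chromosome Y. The members and lists were chosen with earlier results of these data known, and lists are described by counts with no test. The LN229 table holds 28 names in the form of a date. A few genes that the rule names are not reported here. Alternatives were other pseudocounts, filters, scalings, a fit of the compared groups alone, a replicate block, robust moderation, another fold threshold and leaving out each library.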

Additional observations from a re-analysis of the deposited data

How the results depend on the processing

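All 73 named genes at an adjusted p under 0.05 kept their direction under every alternative, and 68 could be tested with the stricter filter. Groups of all 73 did not overlap on scaled values, so their direction was close to fixed beforehand. Of the 73, 13 kept an adjusted p under 0.05 in every alternative: MIR6730, SERPINA3, DEFB124, TF, RN7SL2, A2M, MGP, GADD45A, TRIB3, COL11A1, ITGB3, ADAMTS6 and SOX2. The 208 DEGs became 122 with no filter, 62 with only the compared groups in the fit (where fewer libraries set the spread) and 526 at a minimum log2 fold change of 0.58, and ranged from 68 to 221 when 1 library was left out. The 1119 genes at an adjusted p under 0.05 became 445 with no filter and 192 with only the compared groups, and ranged from 335 to 839 with 1 library left out. The genes called in the difference of responses numbered 2 with no filter and 0 to 11 with 1 library left out. TRA2B passed after quantile normalization (0.36, adjusted p = 0.040). Directions turned for genes near 0: SRSF9 was at -0.0193 with no filter, OFD1 and SRSF4 at 0.0244 and 0.0205 on TPM as deposited and at 0.0102 and 0.0039 after quantile normalization. With 1 library left out CHEK1 ranged from -0.0266 to 0.31, OFD1 from -0.0778 to 0.0958, SRSF1 from -0.0202 to 0.11, SRSF2 from -0.0289 to 0.14, SRSF4 from -0.0245 to 0.0082 and SRSF9 from -0.0251 to 0.0390. The cause of these shifts was not tested.

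With the replicate number as a replicate block there were 317 DEGs (206 of the 208 among them) and 1900 genes at an adjusted p under 0.05, and TRA2A and TRA2B passed at -0.23 (adjusted p = 0.047) and 0.31 (adjusted p = 0.038). The numbers were not taken to pair the samples, since deviations of same-numbered control and knockout libraries correlated at only 0.087, 0.017 and 0.067. Each control correlated best with its own number, but knockout replicate 2 did so with control replicate 3. At some genes, such as SERPINA3 and S100B, replicate 1 was the highest library of every group compared. These correlations over all genes therefore do not settle whether the numbers pair the samples. TPM keeps no depth, so low genes have no counting error of their own.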
